A study of Homo sapiens with 8 samples.

Results

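The SLC25 genes encode the mitochondrial carriers, and transcripts of 43 of them were followed in 8 RNA-seq libraries from 2 human cell lines. Members were all genes with a symbol of SLC25A plus digits that had 10 or more counts in at least 2 libraries. Of 19305 accessions listed in the counts, 48 carried such a symbol, and 43 met the count rule. HEK293T cells, transformed from embryonic kidney, were all under sodium arsenite, an oxidative stressor, and had received either control siRNA or siRNA that targets eIF2A. H9 cells, which are human embryonic stem cells, held either control shRNA or shRNA that targets eIF2A, and their labels name no stress. Each of the 4 groups had 2 libraries of polyadenylated RNA. eIF2A takes part in starting translation and can deliver initiator tRNA, and the study asks what its loss changes in stressed cells and in stem cells. All HEK293T libraries come from arsenite-treated cells, so no unstressed HEK293T control is among them. Dose and duration of arsenite are not in the labels. Nor is it stated there whether the 2 libraries of a group are separate cultures, and p-values here reflect just the library-to-library spread, which may be technical.

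Carriers of this family sit mostly in the inner membrane of mitochondria, which is otherwise closed to charged metabolites, and exchange nucleotides, phosphate, carboxylates, amino acids and cofactors between the matrix and the cytosol. They are built of tandem repeats, each with a conserved signature that starts with proline and ends with lysine or arginine. Most are synthesised on cytosolic ribosomes, passed across the outer membrane through the receptor TOMM70 and small chaperones of the intermembrane space, and inserted by the TIM22 complex. Dividing cells are known to depend on them for citrate export, for the transfer of reducing equivalents by the malate and aspartate shuttle, and for ADP and ATP exchange.

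The change of these transcripts in H9 went with their base composition, described further on, so coding stretches around the first signature are shown for the 3 largest falls with eIF2A shRNA (SLC25A1, SLC25A22, SLC25A26), the 3 largest rises (SLC25A30, SLC25A16, SLC25A36) and the glutathione carrier pair SLC25A39 and SLC25A40, which moved in opposite directions. Each is 78 bases of the GENCODE 29 transcript matched to the counted accession, read 5′ to 3′ on the coding strand, with the codons of the signature in capitals. First means the first match to the signature in that transcript. The matched SLC25A30 transcript encodes 240 residues with 2 such matches, so which repeat its stretch belongs to is not settled here.
SLC25A1: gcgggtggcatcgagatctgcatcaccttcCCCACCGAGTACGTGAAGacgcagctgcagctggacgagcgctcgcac
SLC25A22: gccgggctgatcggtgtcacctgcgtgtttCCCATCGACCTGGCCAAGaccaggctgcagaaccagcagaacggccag
SLC25A26: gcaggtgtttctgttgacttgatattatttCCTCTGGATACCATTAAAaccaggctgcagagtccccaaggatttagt
SLC25A30: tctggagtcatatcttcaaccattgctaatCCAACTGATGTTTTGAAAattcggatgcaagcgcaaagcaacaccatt
SLC25A16: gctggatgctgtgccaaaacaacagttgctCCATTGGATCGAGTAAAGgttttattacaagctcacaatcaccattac
SLC25A36: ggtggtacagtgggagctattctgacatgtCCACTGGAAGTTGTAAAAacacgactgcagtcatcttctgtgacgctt
SLC25A39: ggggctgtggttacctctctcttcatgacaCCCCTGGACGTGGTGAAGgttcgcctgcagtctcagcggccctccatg
SLC25A40: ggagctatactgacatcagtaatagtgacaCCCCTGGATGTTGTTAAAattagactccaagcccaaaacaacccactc
In GRCh38, the build of GENCODE 29, these coding stretches lie in exon 2 of SLC25A1 (chr22:19178155-19178232, minus strand), exon 3 of SLC25A22 (chr11:794793-794870, minus strand), exon 3 of SLC25A26 (chr3:66236556-66236633, plus strand), exon 2 of SLC25A16 (chr10:68516761-68516838, minus strand) and exon 2 of SLC25A36 (chr3:140956531-140956608, plus strand). The stretch of SLC25A30 spans exons 4 and 5 (chr13:45402341-45404374, minus strand), that of SLC25A39 exons 2 and 3 (chr17:44323291-44323502, minus strand) and that of SLC25A40 exons 3 and 4 (chr7:87856299-87858655, minus strand). GC makes up 64.1% of the printed stretch of SLC25A1 and of SLC25A22, but 42.3% in SLC25A26, 39.7% in SLC25A30, 42.3% in SLC25A16 and 47.4% in SLC25A36. In SLC25A39 and SLC25A40 all 6 signature codons read as the same residues, and the 4 bases that differ all fall on the last position of a codon. Over the whole coding sequence, GC at the last codon position was 74.7% in SLC25A39 against 31.1% in SLC25A40. Among the falls it was 84.9% in SLC25A1 and 85.1% in SLC25A22 but 42.7% in SLC25A26. Among the rises it was 51.2% in SLC25A30, 37.0% in SLC25A16 and 32.2% in SLC25A36, so SLC25A26 lay below SLC25A30.

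Libraries held 21837052 to 32318668 gene counts, and the 43 carriers took 0.337 to 0.401% of them. The targeted transcript EIF2A stood at 17.5 and 18.3 CPM (a count scaled to library size with TMM) in HEK293T controls against 5.58 and 5.98 CPM with siRNA, and at 15.8 and 14.8 CPM in the H9 controls and 5.03 and 4.67 CPM with shRNA. The 7 pluripotency markers that could be matched were all at 1 CPM or more in H9, where they summed to 5199 to 5550 CPM, whereas in the HEK293T controls DNMT3B (144 and 145 CPM) and SOX2 (4.44 and 5.78 CPM) were, and NANOG, DPPA4 and L1TD1 were under 0.1 CPM. Of 5 markers of kidney epithelium, PAX2 (5.14 and 6.19 CPM) and LHX1 (3.66 and 3.61 CPM) were at 1 CPM or more in the HEK293T controls, and PAX8, CDH16 and UMOD were under 0.1 CPM. Between the replicates of a group the chi-square per degree of freedom was 4.91 in the HEK293T controls, 1.8 with siRNA, 1.51 in the H9 controls and 1.35 with shRNA, where 1 is sampling noise alone, so no library was a copy of another. In bulk RNA, fewer cells of a kind and less RNA per cell cannot be told apart.

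Of the 5 genes that the count rule left out, SLC25A31, the germ cell form of the ADP/ATP carrier, had 0 counts in all 8 libraries, which allows up to 3 counts or 0.093 to 0.137 CPM for counting error alone. SLC25A2, SLC25A52 and SLC25A6 had at most 1 count in any library. SLC25A6, a widely expressed ADP/ATP carrier, lies in the pseudoautosomal region that X and Y share, and none of the other 14 genes listed from that region had more than 1 count either, among them CD99 at 0, so its listed level is not read as absence. SLC25A47 reached 8 counts in its highest library and stood just outside the rule. The members that reached 10 counts in fewest libraries were SLC25A27, in 5, and SLC25A34 and SLC25A41, in 7 each. All 43 members also passed the low-count filter of the test.

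Among the 43 members, both lines used the same 3 carriers most, by RPKM, which divides CPM by transcript length in kilobases. SLC25A6, whose level could not be read, is outside this ranking. SLC25A5, the ADP/ATP carrier of proliferating cells, led in the HEK293T controls with 605 and 596 RPKM and in the H9 controls with 514 and 520.0 RPKM. SLC25A3, which brings phosphate into the matrix, stood at 371 and 346 RPKM in the HEK293T controls and at 494 and 497 RPKM in the H9 controls. SLC25A39, which supplies the matrix with glutathione, stood at 347 and 337 RPKM in the HEK293T controls and at 364 and 370.2 RPKM in the H9 controls. The HEK293T control values of SLC25A3 and SLC25A39 overlapped, so their order is not resolved there, while in H9 each of the 3 was separate from the next. Together they made up 58.6 to 61.0% of the summed RPKM of the 43 carriers in every library. GENCODE 29 names 9 pseudogenes after SLC25A5 and 2 each after SLC25A3 and SLC25A39, and reads aligned to more than 1 place were counted apart from genes, so these levels are less certain than those of carriers without such copies.

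The carriers ranked next differed between the lines. In the HEK293T controls they were the oxoglutarate and malate carrier SLC25A11 (152 and 159 RPKM), the citrate carrier SLC25A1 (128 and 119 RPKM) and the dicarboxylate carrier SLC25A10 (110.2 and 105 RPKM), with no overlap between neighbours. In the H9 controls SLC25A1 came next at 254 and 262 RPKM, followed by SLC25A11 at 96.8 and 96.2 RPKM and SLC25A29, a carrier of basic amino acids, at 89.6 and 90.7 RPKM. By CPM, which does not divide by length, the same 6 led in HEK293T, and in H9 SLC25A23 took the place of SLC25A29 and SLC25A3 (mean 946 CPM) stood above SLC25A5 (659 CPM). The median carrier stood at 7.82 RPKM in the HEK293T controls and at 7.03 RPKM in the H9 controls. In each control group 20 carriers were at 10 RPKM or more and 7 were under 1 RPKM.

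**Figure D1:**
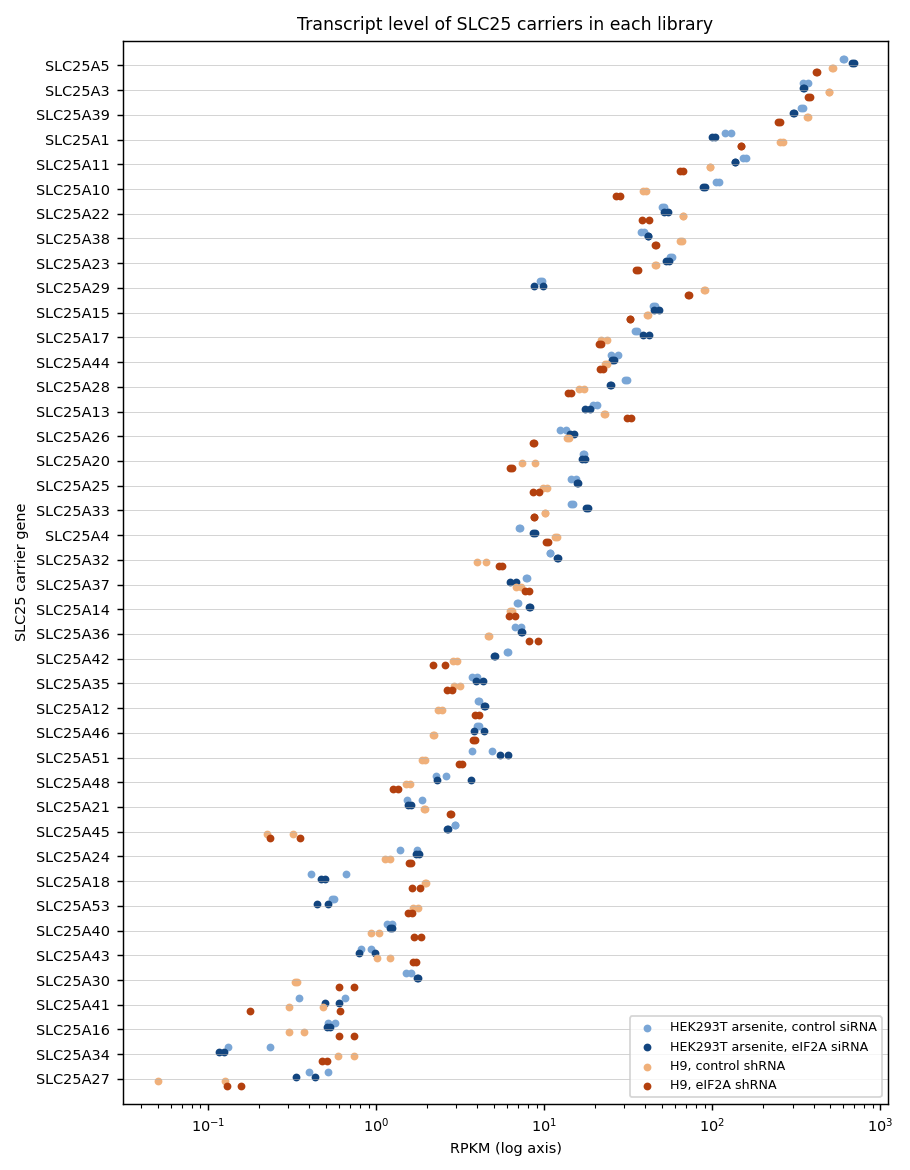
RPKM on a log axis for the carriers (rows, all members but 1, ordered by the mean of the control groups) in each of the 8 libraries (points, coloured by group). SLC25A5, SLC25A3 and SLC25A39 stand above the rest in every library, SLC25A29 is far higher in H9 than in HEK293T, and carriers at the bottom lie under 1 RPKM with wider spread.

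Among carriers with a shared substrate, the same form was the higher by RPKM in the controls of both lines. SLC25A5 made up 97.6 to 98.9% of the summed RPKM of SLC25A5 and its heart and muscle form SLC25A4 across the 8 libraries. SLC25A6, also an ADP/ATP carrier, could not be read here, so the share of SLC25A5 among all ADP/ATP carriers is not known. Of the aspartate and glutamate carriers of the malate shuttle, SLC25A13 (citrin) made up 80.0 to 83.6% of the pair with SLC25A12 in HEK293T and 88.4 to 90.7% in H9. SLC25A22 exceeded SLC25A18 among the glutamate carriers (95.8 to 99.2% of the pair), and SLC25A39 exceeded SLC25A40 (99.3 to 99.7% of the pair). Of the mitoferrins, which import iron, SLC25A28 made up 78.4 to 80.1% of the pair with SLC25A37 in HEK293T and 62.9 to 70.3% in H9. By CPM the order in H9 was the other way. SLC25A37 averaged 33.9 CPM in the H9 controls and 38.13 CPM with shRNA, against 24.05 and 20.41 CPM for SLC25A28. Their order in H9 thus depends on the matched transcript lengths, 4823 and 1451 bases. Of the pyrimidine nucleotide carriers, SLC25A33 made up 67.3 to 71.0% of the pair with SLC25A36 in HEK293T and 68.5 and 68.1% in the H9 controls, against 51.7 and 48.7% with eIF2A shRNA. Of the calcium-regulated ATP-Mg and phosphate carriers, SLC25A23 was highest in the HEK293T controls (55.6 and 57.5 RPKM) and in the H9 controls (46.3 and 45.3 RPKM), ahead of SLC25A25, SLC25A24 and SLC25A41.

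To describe which carriers each line uses, the H9 controls were compared with the HEK293T controls. The lines also differ in arsenite and in the kind of silencing RNA, and these cannot be told apart. Of the 43 carriers, 11 were higher in H9 and 26 were lower (adjusted p under 0.05 by the quasi-likelihood test of edgeR with Benjamini-Hochberg adjustment), while 83.5% of the 14565 genes tested were called, 42.3% higher and 41.2% lower. The members' median log2 difference was -0.31 and that of all genes 0. Upper-quartile scaling moved the median of all genes to -0.16 and that of the members to -0.46, with 9 carriers higher and 28 lower. With the trend on GC content and length taken out, 10 carriers were higher and 27 lower, while 84.7% of all genes were called, 35.0% higher and 49.7% lower. That fit moved the median of all genes to -0.22 and that of the members to -0.54, so its values also hold a shift shared by all genes.

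The amino acid carriers held the largest gain in H9. SLC25A29 stood at 14.9 and 14.6 CPM in HEK293T controls against 138 and 139.6 CPM in the H9 controls, a log2 difference of 3.23 ± 0.055 (SE), or 9.4-fold (adjusted p = 7.9e-34). The glutamate carrier SLC25A18 stood at 0.915 and 1.48 CPM in HEK293T controls against 4.38 and 4.44 CPM in the H9 controls (1.83 ± 0.21). SLC25A38, which carries glycine for heme synthesis, was higher in H9 by 0.76 ± 0.041 on the log2 scale. Of the 10 amino acid and glutathione carriers, 6 were higher in H9 and 3 lower, beside 42.3 and 41.2% of all genes. With the trend on GC content and length taken out, 4 were higher and 4 lower, beside 35.0 and 49.7%. SLC25A22 (0.40 ± 0.045) was at -0.03 (adjusted p = 0.47) in that fit. Those lower as measured included SLC25A12, with 12.1 and 12.3 CPM in the HEK293T controls and 7.32 and 6.96 CPM in the H9 controls. SLC25A44, a carrier of branched-chain amino acids, was also lower (-0.18 ± 0.046). SLC25A39 was higher in H9 as measured (0.10 ± 0.031), but its value was -0.058 (adjusted p = 0.085) under upper-quartile scaling and -0.60 with the trend on GC content and length taken out, so no direction holds for it.

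The carboxylate carriers went opposite ways. SLC25A1, which exports citrate for lipid synthesis, stood at 211 and 196 CPM in HEK293T controls against 418 and 433 CPM in the H9 controls (log2 difference 1.07 ± 0.036, 2.09-fold). SLC25A10 stood at 214 and 205 CPM in HEK293T controls against 75.4 and 78.1 CPM in the H9 controls (-1.45 ± 0.041), and SLC25A11 had a log2 difference of -0.69 ± 0.035. SLC25A20, which imports acylcarnitines for fatty acid oxidation, had a difference of -1.09 ± 0.076. In the uncoupling protein branch SLC25A30 stood at 5.40 and 5.84 CPM in HEK293T controls against 1.21 and 1.19 CPM in the H9 controls (-2.23 ± 0.19). SLC25A27 stood at 1.18 and 1.54 CPM in HEK293T controls against 0.373 and 0.148 CPM in the H9 controls (-2.37 ± 0.42). SLC25A34, a carrier with no settled substrate, stood at 0.392 and 0.691 CPM in HEK293T controls against 2.19 and 1.78 CPM in the H9 controls (1.81 ± 0.31). In each of these the control values of the lines did not overlap. GENCODE 29 names an antisense gene after SLC25A30 and after SLC25A34, and whether the count used strand is not stated in the labels.

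Of the 11 carriers of cofactors, pyrimidine nucleotides and metals, 10 were lower in H9 and none was higher, beside 41.2 and 42.3% of all genes. The counts were the same with the trend on GC content and length taken out, beside 49.7 and 35.0% of all genes. The folate and FAD carrier SLC25A32 had a difference of -1.35 ± 0.076. The NAD carrier SLC25A51 had one of -1.13 ± 0.18, the CoA carrier SLC25A42 one of -1.04 ± 0.092 and the mitoferrin SLC25A28 one of -0.88 ± 0.061. SLC25A26, which imports S-adenosylmethionine, differed by 0.10 ± 0.06 (adjusted p = 0.12) and was the member of this group not called. Among carriers without a settled function, SLC25A45 stood at 6.49 and 6.47 CPM in HEK293T controls against 0.699 and 0.494 CPM in the H9 controls (-3.42 ± 0.22, 10.7-fold lower in H9). SLC25A53 stood at 3.48 and 3.39 CPM in HEK293T controls against 10.3 and 11.1 CPM in the H9 controls (1.64 ± 0.13). The calls of SLC25A15 (-0.12 ± 0.047), SLC25A35 (-0.34 ± 0.11), SLC25A37 (-0.16 ± 0.061), SLC25A48 (-0.65 ± 0.23) and SLC25A24 (-0.45 ± 0.14) were lost when 1 control library was left out, the first H9 control for the first 4 of these and the second HEK293T control for SLC25A24. That of SLC25A15 was also lost without the first HEK293T or the second H9 control, that of SLC25A37 without the second HEK293T control, and that of SLC25A48 without the second H9 control. SLC25A24 was at -0.24 (adjusted p = 0.092) with the trend taken out, so its call was lost in that fit too. Among the carriers whose difference is given above, the trend fit lowered the gain of SLC25A29 to 2.64 and of SLC25A18 to 1.53. It also lowered that of SLC25A38 to 0.59, SLC25A1 to 0.62, SLC25A34 to 1.11 and SLC25A53 to 1.6. Deficits grew for SLC25A10 (-1.91), SLC25A11 (-1.29), SLC25A15 (-0.21), SLC25A20 (-1.23), SLC25A28 (-1.49) and SLC25A35 (-1.04). They also grew for SLC25A37 (-0.43), SLC25A42 (-1.78), SLC25A44 (-0.45), SLC25A45 (-4.05) and SLC25A48 (-1.33). Besides SLC25A24, deficits shrank for SLC25A12 (-0.7), SLC25A27 (-2.23), SLC25A30 (-2.08), SLC25A32 (-1.11) and SLC25A51 (-1.07).

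**Figure D2:**
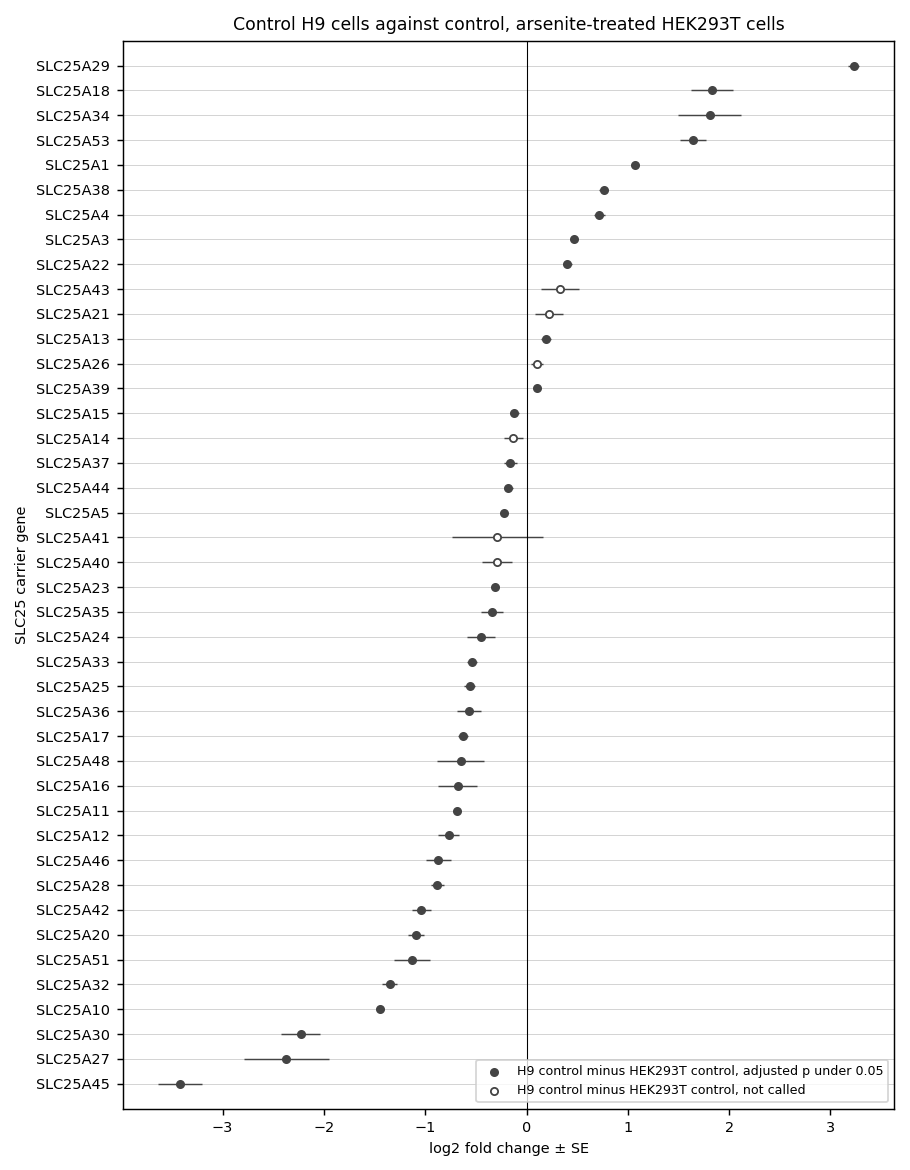
Log2 fold change of the carriers (rows, all members but 1) in H9 controls over arsenite-treated HEK293T controls, with bars of 1 standard error, filled where the adjusted p was under 0.05. SLC25A29 stands apart at 3.23 at the top and SLC25A45 at -3.42 at the bottom, and most filled points lie to the left of 0.

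In arsenite-treated HEK293T cells eIF2A siRNA moved the carriers little. Of 43, 8 rose and 8 fell, 18.6% each way, while 28.7% of all genes tested were called, 14.1% higher and 14.7% lower. No carrier called changed by 1.5-fold, and of the 14565 genes tested just 309 were called at that size. The median log2 fold change was 0.01 for the members and 0 for all genes. The 8 that rose included 2 of the 7 adenine nucleotide and phosphate carriers, none of which fell. The 8 that fell included both mitoferrins and 3 of the 10 carboxylate, acylcarnitine and uncoupling branch carriers, while 1 of those 10 rose. Without HEK293T arsenite control siRNA replicate 2 the count that rose was 5, and without HEK293T arsenite eIF2A siRNA replicate 2 it was 4. With the trend on GC content and length taken out, 5 rose and 8 fell, beside 27.4% of all genes called, 14.9% higher and 12.5% lower. In that fit SLC25A14 (0.17), SLC25A26 (0.13), SLC25A38 (0.08) and SLC25A42 (-0.20, adjusted p = 0.052) lost the call, and SLC25A3 was called lower (-0.09, adjusted p = 0.039), so 7 of the 8 that fell were shared. Reads outside any counted feature came to 15.59 and 17.68% in the controls and 14.98 and 14.95% with siRNA, and their part in these changes was not tested.

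SLC25A51, which brings NAD into the matrix, stood at 5.49 and 4.18 CPM in control libraries against 6.15 and 6.91 CPM with siRNA (log2 fold change 0.46 ± 0.13, adjusted p = 0.0077). Its call was lost without the second control or the second siRNA library. SLC25A33 stood at 57.4 and 55.4 CPM in control libraries against 68.1 and 69.7 CPM with siRNA (0.29 ± 0.046, adjusted p = 6e-06). SLC25A4 rose from 31.2 and 31.9 CPM to 38.1 and 38.9 CPM (0.29 ± 0.054), and SLC25A5 rose from 771 and 759 CPM to 859 and 881 CPM (0.19 ± 0.03). For SLC25A33, SLC25A4 and SLC25A5 the siRNA libraries lay above both controls, as for 13 of the 43 carriers, called or not. How often this was so over all genes was not counted. SLC25A17, a carrier of cofactors in peroxisomes, stood at 80.9 and 78.2 CPM in control libraries against 87.8 and 95.1 CPM with siRNA (0.20 ± 0.045), and it was not called without the second siRNA library. SLC25A14 of the uncoupling branch stood at 12.2 and 12.0 CPM in control libraries against 14.1 and 14.2 CPM with siRNA (0.23 ± 0.084), a call lost when any of the 4 HEK293T libraries was left out. SLC25A26 (0.18 ± 0.057) and SLC25A38 (0.11 ± 0.041) also passed. Both calls were lost without the first siRNA library, that of SLC25A26 also without the second control, and that of SLC25A38 also without the first control, the second siRNA library or any of 3 H9 libraries.

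Among carriers that fell, SLC25A28 went from 44.8 and 44.0 CPM to 35.6 and 36.3 CPM with siRNA (-0.30 ± 0.054, adjusted p = 3.4e-05) and its mitoferrin partner SLC25A37 from 37.5 and 38.0 CPM to 32.6 and 30.0 CPM (-0.27 ± 0.058). SLC25A1 went from 211 and 196 CPM to 163 and 171 CPM (-0.28 ± 0.037, adjusted p = 3.1e-07). SLC25A10 went from 214 and 205 CPM to 170.3 and 176 CPM (-0.27 ± 0.036), and SLC25A11 had a log2 fold change of -0.18 ± 0.033. In all of these the siRNA libraries lay below both controls, as for 12 of the 43 carriers, called or not. That share was not counted over all genes. SLC25A42, the CoA carrier, stood at 18.6 and 19.0 CPM in control libraries against 15.8 and 15.8 CPM with siRNA (-0.25 ± 0.077), and its call was lost without the second control library or without either siRNA library. SLC25A39 changed by -0.17 ± 0.031 and SLC25A13 by -0.15 ± 0.047, the latter lost without the first control or the first siRNA library. SLC25A3 (-0.03 ± 0.032, adjusted p = 0.47) and SLC25A22 (0.06 ± 0.044, adjusted p = 0.36) were not called.

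**Figure D3:**
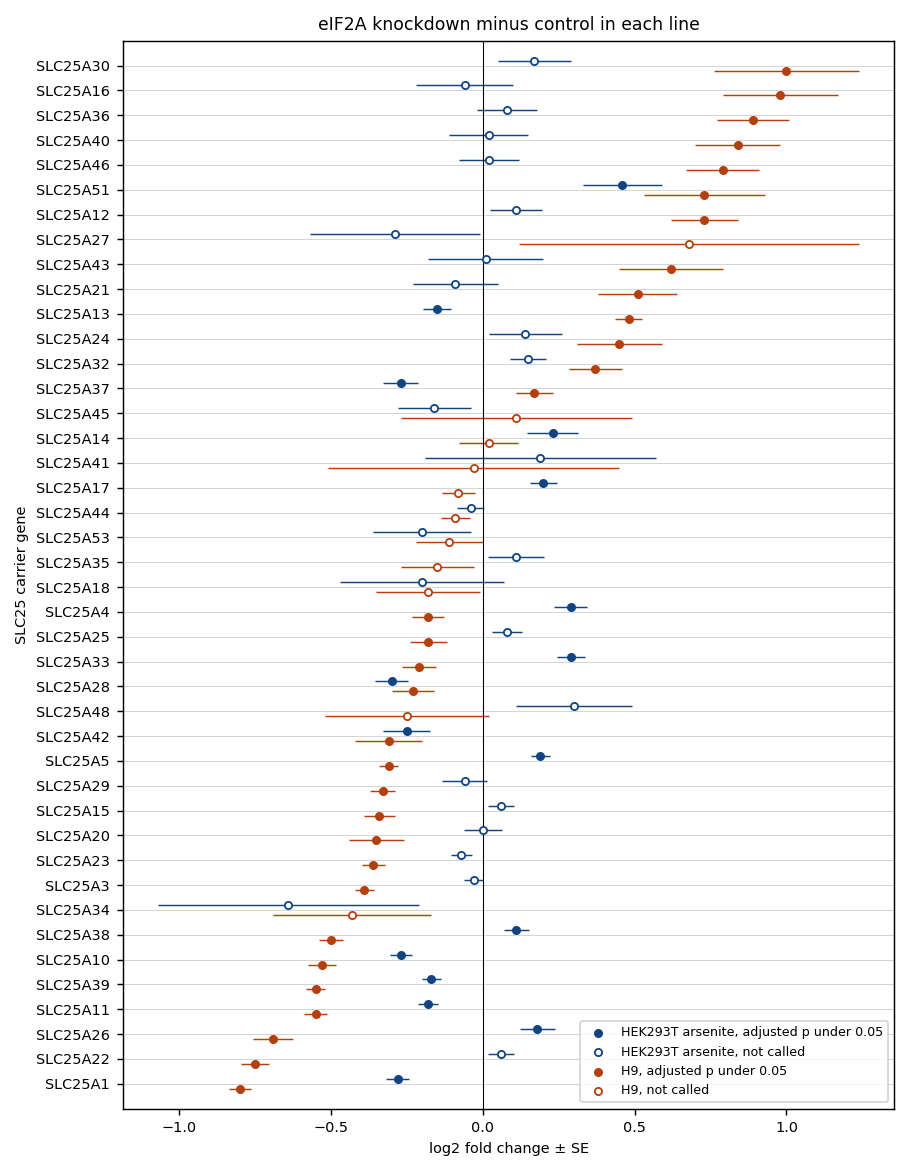
Log2 fold change of the carriers (all members but 1) with eIF2A knockdown in arsenite-treated HEK293T (blue) and in H9 (orange-brown), with bars of 1 standard error, filled where the adjusted p was under 0.05 and ordered by the H9 value. HEK293T values run from -0.64 for SLC25A34, which was not called, to 0.46 for SLC25A51, and H9 values from -0.80 for SLC25A1 to 1.0 for SLC25A30.

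With eIF2A shRNA in H9, the 6 carriers with the highest control levels all fell as measured, and several little used ones rose. Of 43 carriers, 13 rose (30.2%) and 19 fell (44.2%), while 71.3% of all genes tested were called, 37.0% higher and 34.3% lower. The median log2 fold change was -0.18 for the members and 0.02 for all genes. With DESeq2's size factors the median of all genes moved to -0.13 and that of the members to -0.34, with 11 carriers higher and 24 lower. The 43 carriers summed to 4056 and 4093 CPM in the controls and to 3107 and 3123 CPM with shRNA, and without TMM scaling their share of gene counts was 0.378% in both controls and 0.337% in both shRNA libraries. Reads outside any counted feature came to 18.84 and 18.39% in the controls and 20.84 and 20.63% with shRNA. The summed neural markers (3 of 4 at 1 CPM or more) went from 357.48 to 374.11 CPM in the controls to 177.32 to 179.49 CPM with shRNA, the summed fibroblast markers (3 of 5) from 973.22 to 979.61 CPM to 842.18 to 855.52 CPM, and the summed pluripotency markers from 5535.99 to 5549.63 CPM to 5198.57 to 5294.22 CPM. Each sum followed its most abundant genes: TUBB3 (-1.10 ± 0.035), THY1 (-0.42 ± 0.033), LIN28A (-0.11 ± 0.032) and DNMT3B (-0.15 ± 0.029) fell. In the same lists MAP2 (0.33 ± 0.11), COL1A1 (0.45 ± 0.043), COL1A2 (0.48 ± 0.044), SOX2 (0.47 ± 0.049), DPPA4 (0.11 ± 0.034) and L1TD1 (1.01 ± 0.045) rose as measured. With the trend on GC content and length taken out, MAP2 (-0.74) and DPPA4 (-0.61) were lower and L1TD1 was at 0.16. POU5F1 (-0.48 ± 0.14, adjusted p = 0.027) and SOX1 (-0.69 ± 0.18, adjusted p = 0.001) fell as measured. NANOG (-0.07 ± 0.056, adjusted p = 0.29) was not called. In the trend fit these 3 were at -0.53, -0.38 (adjusted p = 0.078) and -0.78. The part of these in the carriers' changes was not tested.

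The changes went with GC content. Of 13 carriers with a transcript under 45% GC, 10 rose and none fell, with a median log2 fold change of 0.68, while of all 4574 genes in that range 3443 rose and 248 fell, with a median of 0.85. Of 16 carriers over 55% GC, 11 fell and none rose, with a median of -0.34, while of all 5169 genes in that range 3326 fell and 233 rose, with a median of -0.36. Across the 43 carriers the log2 fold change had a Spearman correlation of -0.72 with GC content and of 0.36 with transcript length, and across 14489 genes the values were -0.68 and 0.45. These are descriptions over genes of the same 4 libraries, and genes are not independent replicates. In HEK293T the Spearman correlation with GC content was -0.33 across the carriers and -0.1 across the 14489 genes. A fit was also run with the trend of each library on GC content and length taken out, and its values are given beside those as measured.

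**Figure D4:**
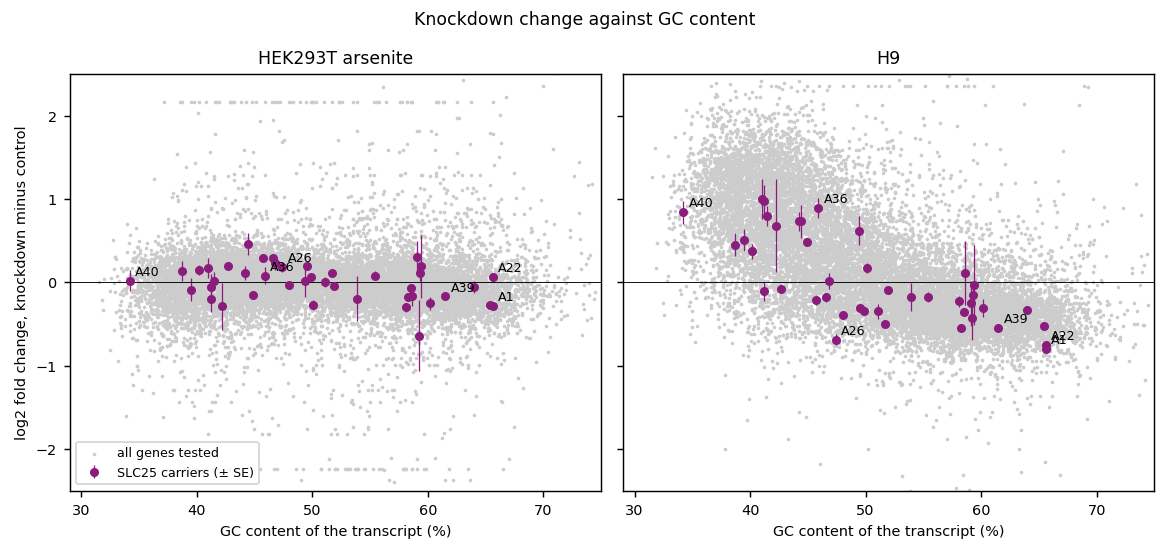
Log2 fold change with eIF2A knockdown against the GC content of the transcript in HEK293T (left) and H9 (right), for all genes tested (grey; those past the axis limits are not shown) and for the carriers (all members but 1, purple, bars of 1 standard error). In H9 the carriers run along the grey band from SLC25A40 at 34.2% GC and 0.84 to SLC25A1 at 65.6% GC and -0.80, with SLC25A26 at 47.4% GC and -0.69.

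Of the 7 adenine nucleotide and phosphate carriers, 5 fell and 1 rose, beside 34.3 and 37.0% of all genes. With the trend taken out 5 fell and none rose, beside 28.6 and 21.0%. SLC25A3 stood at 943 and 948 CPM in control libraries against 728 and 712 CPM with shRNA (-0.39 ± 0.032, adjusted p = 3.6e-13), and its log2 fold change was -0.51 with the trend taken out. SLC25A5 stood at 655 and 662 CPM in control libraries against 535 and 528 CPM with shRNA (-0.31 ± 0.03), and at -0.21 with the trend taken out. For both, the shRNA libraries lay below both controls. In H9 this was so for 26 of the 43 carriers, called or not, and 14 lay above both. Lack of overlap was thus common here, and its share was not counted over all genes. SLC25A23 (-0.36 ± 0.038) and SLC25A25 (-0.18 ± 0.061) also fell, the latter not called without the second control or the first shRNA library, under upper-quartile scaling or with the trend taken out (-0.08, adjusted p = 0.25). SLC25A4 changed by -0.18 ± 0.052 as measured and by -0.69 with the trend taken out, and under upper-quartile scaling it was not called. SLC25A24, the member that rose (0.45 ± 0.14), was at -0.47 (adjusted p = 0.0054) with the trend taken out, so its direction depends on the fit. SLC25A41, near the detection limit, was at -0.03 ± 0.48 (adjusted p = 0.96).

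Of the 10 carboxylate, acylcarnitine and uncoupling branch carriers, 4 fell and 2 rose, beside 34.3 and 37.0% of all genes. With the trend taken out 3 fell and none rose, beside 28.6 and 21.0%. SLC25A1 stood at 418 and 433 CPM in control libraries against 244 and 245 CPM with shRNA, which leaves 57.5% of the control level (-0.80 ± 0.036, adjusted p = 1e-19), and its log2 fold change was -0.32 (adjusted p = 9.3e-10) with the trend taken out. SLC25A11 stood at 184 and 183 CPM in control libraries against 122 and 128 CPM with shRNA (-0.55 ± 0.037), and at -0.14 with the trend taken out. In both genes the shRNA libraries were the low ones, with no overlap. SLC25A10 changed by -0.53 ± 0.047, and by -0.09 (adjusted p = 0.11) with the trend taken out, and SLC25A20 by -0.35 ± 0.092, a call lost without the second H9 control. SLC25A30 stood at 1.21 and 1.19 CPM in control libraries against 2.17 and 2.67 CPM with shRNA (1.0 ± 0.24, adjusted p = 0.00032), the largest rise among the carriers, but at 0.19 (adjusted p = 0.54) with the trend taken out. SLC25A21, the oxoadipate carrier, rose by 0.51 ± 0.13 and turned to -0.25 (adjusted p = 0.12).

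Among the 10 amino acid and glutathione carriers 3 rose and 5 fell, beside 37.0 and 34.3% of all genes. With the trend taken out 1 rose and 4 fell, beside 21.0 and 28.6%. The glutamate carrier SLC25A22 stood at 120.3 and 120.4 CPM in control libraries against 68.1 and 74.7 CPM with shRNA (-0.75 ± 0.046, adjusted p = 3.1e-16), and its log2 fold change was -0.30 (adjusted p = 1.3e-06) with the trend taken out. SLC25A38 stood at 142 and 137 CPM in control libraries against 98.3 and 98.9 CPM with shRNA (-0.50 ± 0.04), and at -0.39 with the trend taken out. The ornithine carrier SLC25A15 of the urea cycle changed by -0.34 ± 0.05, and by -0.26 with the trend taken out. SLC25A39, with the GC-rich codons shown above, stood at 569 and 579 CPM in control libraries against 386 and 398 CPM with shRNA (-0.55 ± 0.031). SLC25A40 stood at 3.78 and 4.20 CPM in control libraries against 6.80 and 7.46 CPM with shRNA (0.84 ± 0.14), so within the pair the shRNA libraries were low for one gene and high for the other. Neither was called with the trend taken out (-0.04, adjusted p = 0.34, and -0.03, adjusted p = 0.9). SLC25A12 rose by 0.73 ± 0.11 and SLC25A13 by 0.48 ± 0.046, and these were 0.17 and -0.06 with the trend taken out, neither called. SLC25A29 stood at 138 and 139.6 CPM in control libraries against 109.6 and 112 CPM with shRNA (-0.33 ± 0.042), and its direction turned to 0.19 (adjusted p = 2e-04).

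Of the 11 carriers of cofactors, pyrimidine nucleotides and metals, 5 rose and 5 fell, beside 37.0 and 34.3% of all genes. With the trend taken out 2 rose and 4 fell, beside 21.0 and 28.6%. SLC25A26 stood at 36.7 and 37.4 CPM in control libraries against 22.8 and 23.2 CPM with shRNA (-0.69 ± 0.065, adjusted p = 1.9e-11), and its log2 fold change was -0.95 (adjusted p = 2.1e-14) with the trend taken out. SLC25A36 stood at 6.01 and 6.12 CPM in control libraries against 10.6 and 11.9 CPM with shRNA (0.89 ± 0.12, adjusted p = 1.8e-08), and its log2 fold change was 0.70 (adjusted p = 5e-06) with the trend taken out. The other pyrimidine nucleotide carrier, SLC25A33, changed the other way, from 38.8 and 38.7 CPM to 33.6 and 33.5 CPM (-0.21 ± 0.057), and was at -0.74 with the trend taken out. For these 3 the direction was the same in both fits, and the groups did not overlap, as for most carriers in H9. SLC25A16, a carrier linked to CoA, stood at 2.42 and 1.98 CPM in control libraries against 3.90 and 4.83 CPM with shRNA (0.98 ± 0.19), and was at -0.02 (adjusted p = 0.95) with the trend taken out. SLC25A51 rose by 0.73 ± 0.2 and was not called with the trend taken out (0.45). The mitoferrins SLC25A28 (-0.23 ± 0.07) and SLC25A37 (0.17 ± 0.062) both changed sign, to 0.24 (adjusted p = 0.0039) and -0.09 (adjusted p = 0.22), and SLC25A32 went from 0.37 ± 0.087 to -0.39 (adjusted p = 0.00041). As measured, SLC25A28 was not called without the second H9 control, and SLC25A37 and SLC25A42 (-0.31 ± 0.11) were not called without the first control or the second shRNA library.

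Carriers of unsettled or other function gave 2 higher and none lower of 5, beside 37.0 and 34.3% of all genes. With the trend taken out 1 was higher and 1 lower, beside 21.0 and 28.6%. SLC25A46, an outer membrane protein that acts in mitochondrial dynamics, stood at 5.22 and 5.28 CPM in control libraries against 8.97 and 9.25 CPM with shRNA (0.79 ± 0.12), and was at 0.14 (adjusted p = 0.37) with the trend taken out. SLC25A43 rose by 0.62 ± 0.17 and was still called at 0.50 (adjusted p = 0.015). SLC25A53 was at -0.11 ± 0.11 as measured (adjusted p = 0.37) and at -1.09 (adjusted p = 1.6e-10) with the trend taken out. Its matched transcript has 6225 bases, and length is a term of that fit.

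With the trend taken out, 4 carriers were higher and 17 lower, while 49.6% of all genes tested were called, 21.0% higher and 28.6% lower. Of the 13 carriers that rose as measured, SLC25A36 and SLC25A43 were called in the same direction, SLC25A24 and SLC25A32 in the other, and 9 were not called. Of the 19 that fell, 12 were called in the same direction, namely SLC25A1, SLC25A3, SLC25A4, SLC25A5, SLC25A11, SLC25A15, SLC25A20, SLC25A22, SLC25A23, SLC25A26, SLC25A33 and SLC25A38. SLC25A28 and SLC25A29 were called in the other direction, and 5 were not called. SLC25A17 (-0.65), SLC25A44 (-0.14) and SLC25A53 (-1.09) were called lower in that fit and not as measured.

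**Figure D5:**
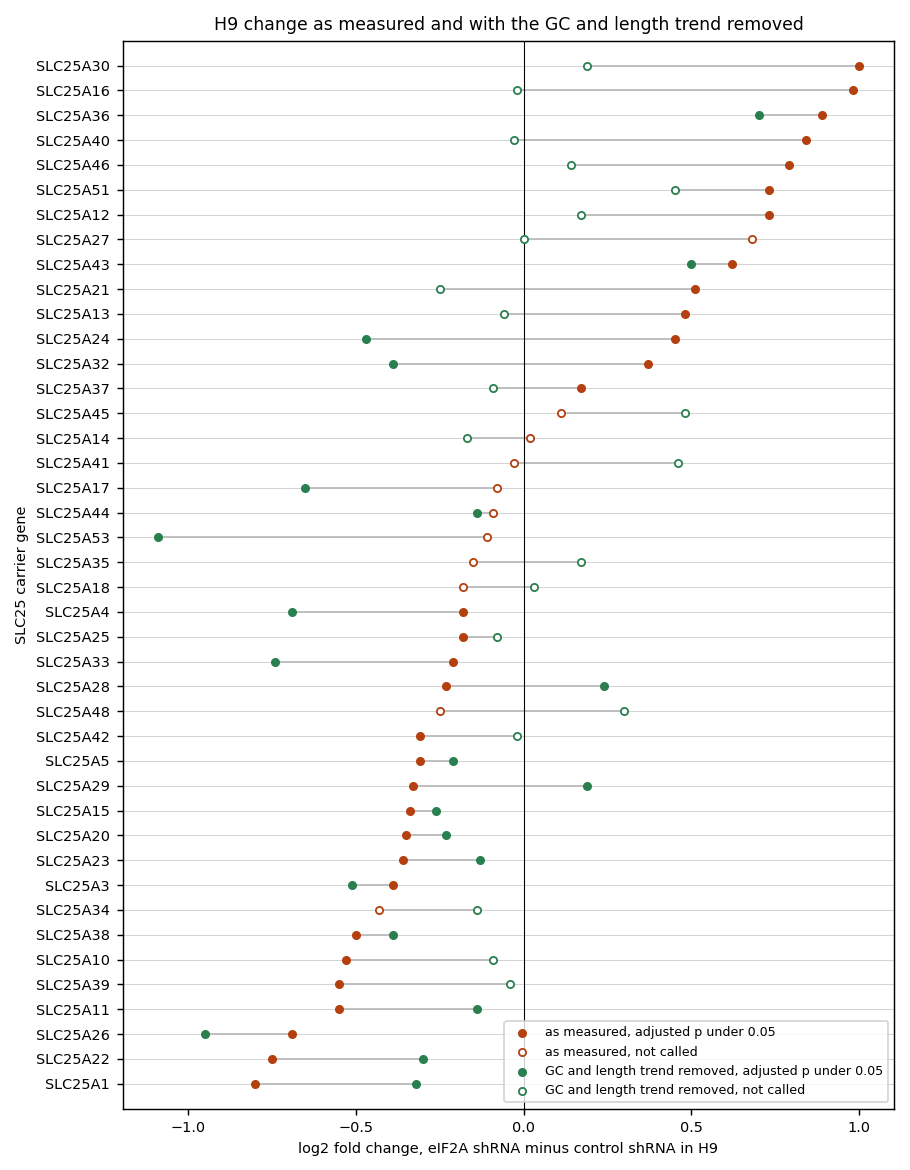
Log2 fold change of the carriers (all members but 1) with eIF2A shRNA in H9 as measured (orange-brown) and with the GC and length trend taken out (green), joined by a grey line and filled where the adjusted p was under 0.05. Of the 13 carriers that rose, SLC25A36 and SLC25A43 keep filled points on the right in both fits, while SLC25A26, SLC25A22 and SLC25A1 at the bottom stay filled on the left.

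The difference between the knockdown changes, H9 minus HEK293T, was tested in the same model. It was higher in H9 for 10 carriers and lower for 18, while 58.1% of all genes tested were called, 31.1% higher and 27.0% lower. With the trend taken out it was higher for 3 carriers and lower for 14, beside 42.2% of all genes called, 17.3% higher and 24.9% lower. As measured, SLC25A4, SLC25A5, SLC25A26, SLC25A33 and SLC25A38 rose in HEK293T and fell in H9, with differences of -0.47 ± 0.076, -0.49 ± 0.042, -0.87 ± 0.086, -0.50 ± 0.073 and -0.61 ± 0.058. For these 5 the differences with the trend taken out were -0.96, -0.34, -1.09, -1.0 and -0.47, and all 5 were called. In that fit the HEK293T rises of SLC25A26 (0.13, adjusted p = 0.07) and SLC25A38 (0.08, adjusted p = 0.12) were themselves not called. As measured, SLC25A13 and SLC25A37 fell in HEK293T and rose in H9, with differences of 0.63 ± 0.066 and 0.44 ± 0.085, but with the trend taken out neither difference was called (0.14, adjusted p = 0.081, and 0.17, adjusted p = 0.12). As measured, SLC25A1, SLC25A10, SLC25A11, SLC25A28, SLC25A39 and SLC25A42 fell in both lines, and SLC25A51 rose in both. With the trend taken out only SLC25A1 and SLC25A11 of these 7 were called in both lines in the same direction. In H9, SLC25A10, SLC25A39, SLC25A42 (-0.02, adjusted p = 0.91) and SLC25A51 were then not called, and SLC25A28 was higher. The differences of SLC25A28 (0.07 ± 0.088, adjusted p = 0.53) and SLC25A42 (-0.05 ± 0.14, adjusted p = 0.76) were not called as measured, and that of SLC25A28 was called with the trend taken out (0.53, adjusted p = 6e-06), whereas SLC25A1 differed by -0.52 ± 0.052, a call lost with the trend taken out (-0.08, adjusted p = 0.19). SLC25A22 (-0.81 ± 0.064) and SLC25A36 (0.81 ± 0.15) were called in both fits. SLC25A16 (1.03 ± 0.25) and SLC25A30 (0.83 ± 0.27) were called as measured and not with the trend taken out (0.01, adjusted p = 1, and 0.04, adjusted p = 0.94), and SLC25A30 not without the second H9 shRNA library.

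Family members that carry other symbols were MTCH1, MTCH2 and the uncoupling proteins, of which UCP1 was too low to test. MTCH2, an outer membrane insertase, averaged 169 CPM in the HEK293T controls and 212 CPM with siRNA (0.32 ± 0.036), and 219 CPM in the H9 controls and 175 CPM with shRNA (-0.32 ± 0.037). UCP2, a carrier of C4 metabolites, changed by -0.12 ± 0.037 in HEK293T and by -0.73 ± 0.041 in H9. UCP3, which is low in both lines, averaged 1.71 CPM in the HEK293T controls and 0.909 CPM with siRNA (-0.93 ± 0.27, adjusted p = 0.0081), and its difference, H9 minus HEK293T, was 1.98 ± 0.65 (adjusted p = 0.0091). Of these 4 tested genes, 1 rose and 3 fell in HEK293T, beside 14.1 and 14.7% of all genes, and none rose and 3 fell in H9, beside 37.0 and 34.3%. With the trend taken out 1 rose and 1 fell in HEK293T, beside 14.9 and 12.5% of all genes. In H9 none rose and 2 fell, beside 21.0 and 28.6%. UCP2 in HEK293T (-0.08, adjusted p = 0.09) and MTCH1 in both lines were not called in that fit.

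Of 10 genes of the carrier import pathway, 1 rose and none fell in HEK293T, beside 14.1 and 14.7% of all genes. In H9, 1 rose and 8 fell, with a median of -0.48, beside 37.0 and 34.3% of all genes. With the trend taken out the counts were also 1 and 8, with a median of -0.54, beside 21.0 and 28.6% of all genes, but TIMM29 lost its call (-0.43 ± 0.066 as measured, then 0.10, adjusted p = 0.2) and TIMM9 gained one (-0.05 ± 0.083, then -0.55). TIMM22, the channel subunit that inserts carriers, averaged 115 CPM in the H9 controls and 70.6 CPM with shRNA (-0.70 ± 0.046), and its log2 fold change was -0.72 with the trend taken out. The small chaperones TIMM10 (-0.68 ± 0.05) and TIMM13 (-0.77 ± 0.035) and the TIM22 subunit AGK (-0.53 ± 0.067) fell in H9 and stayed called with the trend taken out. The receptor TOMM70 rose in both lines, by 0.16 ± 0.051 in HEK293T and 0.98 ± 0.059 in H9, and its H9 value with the trend taken out was 0.15 (adjusted p = 0.03).

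Of 16 other transport proteins of mitochondrial membranes, 2 rose and 3 fell in HEK293T, 12.5 and 18.8% against 14.1 and 14.7% of all genes. In H9, 5 rose and 7 fell, 31.2 and 43.8% against 37.0 and 34.3% of all genes, or 1 and 12 with the trend taken out, beside 21.0 and 28.6% of all genes. VDAC3, a pore of the outer membrane, rose by 0.38 ± 0.039 in HEK293T. The pyruvate carrier subunit MPC2 had a log2 fold change of -0.56 ± 0.067 in H9, and of -0.48 with the trend taken out. CPT1A, which forms acylcarnitines for import by SLC25A20, rose in H9 from a mean of 4.03 to 7.90 CPM (0.97 ± 0.13) and was at 0.73 with the trend taken out.

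RefSeq promoter windows around the gene start (GRCh38.p14) were found for 36 of the 43 carriers. The E-box CACGTG was present in 6 of them (16.7%), namely SLC25A13, SLC25A33, SLC25A36, SLC25A38, SLC25A46 and SLC25A51, against 7.4% of 27305 promoters. Those promoters were not limited to the genes tested here. The core motif of NRF1, searched on both strands, was present in SLC25A3, SLC25A11 and SLC25A51 (8.3%), against 6.3% of all promoters. The ATF4 and C/EBP composite TGATGCAA and the ERR motif TCAAGGTCA, also on both strands, were in none of the 36, against 0.9 and 0.4% of all promoters. A match describes letters in the window only.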

How the data were processed

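RNA from 8 libraries was extracted with TRIzol and made into libraries with TruSeq Stranded mRNA, per the labels' protocols. The submitters' processing notes name cutadapt, STAR 2.5.2b and hg19. The labels and notes do not state which program counted the reads, whether it used strand, or which annotation release it read. The deposited files hold whole-number counts per RefSeq accession, and the 5 special counters for reads not given to a gene entered neither library sizes nor tests. Symbols came from RefSeq for 18888 of 19305 accessions and from GENCODE 29 for 223, and 194 stayed unnamed. Transcript length and GC content came from GENCODE 29, by accession for 42 of the 43 carriers and by symbol for SLC25A46, so RPKM rests on lengths that may differ from those the authors counted over.

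The counts of all 8 libraries were fitted with edgeR 4.0.16 (R 4.3.3), with TMM scaling, its default filter on low counts (14565 genes tested) and robust quasi-likelihood tests with 4 residual degrees of freedom. The standard error is the log2 fold change divided by the square root of its F value. Alternatives were DESeq2's size factors, upper-quartile scaling, DESeq2 1.42.0, limma-voom (limma 3.58.1), other filters, an adjusted p of 0.01, the compared groups alone, a replicate block, each library left out, and offsets for GC content and length (mgcv 1.9.3, a spline basis of 6 per library). The fit was also run on simulated counts, and the outcome of that run is not given here. Carriers and lists were chosen with earlier results of these data known. Full values were given for the 6 highest carriers by RPKM in each control group, the 5 largest called rises and falls per contrast and the 3 largest called differences between contrasts each way. The total count of each library and the limit that a count of 0 allows cover counting error only. One carrier is counted among the members but is not reported here by name and is not drawn in the figures.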

Additional observations from a re-analysis of the deposited data

Results flagged for a closer look

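The change with eIF2A knockdown differed between the lines, by a test of the difference itself (H9 minus HEK293T, edgeR quasi-likelihood), for 10 carriers in the higher direction and 18 in the lower, while 58.1% of all genes tested were called, 31.1% higher and 27.0% lower. With the trend on GC content and length taken out these counts were 3 and 14, beside 17.3 and 24.9% of all genes. The log2 difference was 1.03 for SLC25A16, 0.83 for SLC25A30 and 0.81 for SLC25A36, and with the trend taken out it was 0.01 (adjusted p = 1), 0.04 (adjusted p = 0.94) and 0.68. It was -0.87 for SLC25A26, -0.81 for SLC25A22 and -0.61 for SLC25A38, and -1.09, -0.40 and -0.47 with the trend taken out. The HEK293T cells were treated with arsenite and received siRNA while H9 carried shRNA, so line, stress and kind of silencing RNA cannot be told apart in these differences.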

How the results depend on the processing

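The count of carriers that rose in HEK293T, 8, was 4 with DESeq2, 5 with the trend on GC content and length taken out, 5 with the replicate block and that trend together and 5 at an adjusted p of 0.01. The count that rose in H9, 13, was 8 with DESeq2 and 4 with the trend taken out, with or without the block, and the count with a higher change in H9 than in HEK293T, 10, was 3 with the trend taken out and 2 with the block as well. The replicate block alone gave 6 higher and 8 lower in HEK293T, where SLC25A14 and SLC25A38 lost the call. It gave 13 and 19 in H9 and 10 and 18 for the difference. The labels do not say that set numbers pair samples, and same-numbered libraries did not deviate together (Pearson r of -0.009 in HEK293T and 0.03 in H9 over 11924 genes). Leaving out each library gave 4 to 9 higher and 6 to 8 lower in HEK293T, 12 to 13 and 16 to 20 in H9, 8 to 11 and 17 to 19 for the difference, and 11 to 13 and 22 to 26 between the control groups. Of 113 called values, 22 lost the call without at least 1 library and none turned direction. With the trend taken out, alone and then with the block, direction turned in H9 for SLC25A13 (-0.056 and -0.056), SLC25A16 (-0.019 and -0.021), SLC25A21 (-0.25 and -0.25), SLC25A24 (-0.468 and -0.468), SLC25A28 (0.24 and 0.239), SLC25A29 (0.189 and 0.189), SLC25A32 (-0.388 and -0.387), SLC25A37 (-0.092 and -0.091) and SLC25A40 (-0.027 and -0.029). For the difference it turned for SLC25A10 (0.139 and 0.14), SLC25A11 (0.018 and 0.017), SLC25A21 (-0.141 and -0.133), SLC25A29 (0.202 and 0.198), SLC25A39 (0.091 and 0.091) and SLC25A40 (-0.167 and -0.169). Between the control groups it turned for SLC25A22 (-0.034) and SLC25A39 (-0.597) with the trend taken out, and for SLC25A39 (-0.058) under upper-quartile scaling. The cause was not tested. The block was not run between the control groups, whose set numbers join different lines. With 2 libraries a group, carriers under 1 CPM have wide errors, and a call that was not made there does not show that a level did not differ.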
